A study of Mus musculus with 6 samples.

Results

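The Schlafen genes form a mouse gene family on chromosome 11, and 7 of them are described here in CD4+ T cells: Slfn1, Slfn2, Slfn3, Slfn4, Slfn5, Slfn8 and Slfn9. The 7 were picked by family name out of 55177 genes with a matched transcript, but the family was selected on the measured difference between knockout and wild-type cells, with earlier results of these data known. Their differences between the groups are therefore given as values, with no p. Where a member is said to have been called or not called, this describes on which side of the threshold it fell in the test over all genes and is no evidence for the family. Each of the 7 genes passed the filter on low counts that left 17610 genes for testing. RNA was sequenced from 3 wild-type libraries (WT 1 to 3) and 3 libraries labelled as Wtap knockout (Wtap KO 1 to 3), all from C57BL/6J mice. Wtap protein is a partner of the enzymes that place N6-methyladenosine (m6A) on messenger RNA in the nucleus. Per the labels' protocols, which read the same for WT, cells were given 4-hydroxytamoxifen at 1 µM for 24 h to deplete Wtap. They were then activated through CD3 and CD28 with IL-12 and an antibody to IL-4, moved to IL-2 and harvested on day 4. The sources used here do not give the Cre status of WT cells or the deleted part of Wtap. They do not tie libraries to separate animals either, so p-values measure only the spread between these samples.

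Schlafen proteins share an N-terminal core that binds and, in some members, cuts RNA. Slfn1 and Slfn2 are the short members, Slfn3 and Slfn4 are intermediate, and Slfn5, Slfn8 and Slfn9 are long members that add a C-terminal domain related to helicases. Many members are induced by type I interferon. In T cells the family is known for growth control: Slfn1 slows the cycling of T cells when it is overexpressed, and loss of Slfn2 function leaves T cells unable to hold quiescence. Slfn2 also binds transfer RNAs and shields them from cleavage.

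The members are close copies of each other in places, and reads that fit several transcripts were split between them, so the sequences come before the levels. Coding regions were 1011 bases for Slfn1, 1134 for Slfn2, 1920 for Slfn3, 1806 for Slfn4, 2652 for Slfn5 and 2730 for both Slfn8 and Slfn9. The long pair Slfn8 and Slfn9 had 92.7% identity over 2730 aligned coding bases, with 199 differing bases. The intermediate pair Slfn3 and Slfn4 had 92.7% identity over 1785 aligned bases, with 130 differing bases. The short pair Slfn1 and Slfn2 had 71.9% identity. Other pairs had 63.2% to 77.0% identity over the bases that could be aligned.

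The difference between Slfn8 and Slfn9 is uneven along the coding region. The 2 stretches that follow are 90 aligned coding bases of each gene (coding positions 2315 to 2404) and are shown because 20 of the 90 bases differ, given in capitals, so that reads from here can be told apart. They lie on the minus strand in the last part of each gene, in exon 6 of Slfn8 at chr11:83003408-83003497 and in exon 5 of Slfn9 at chr11:82981505-82981594 (GRCm38).
Slfn8: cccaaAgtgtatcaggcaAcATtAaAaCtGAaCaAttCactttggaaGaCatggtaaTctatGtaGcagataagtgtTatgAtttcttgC
Slfn9: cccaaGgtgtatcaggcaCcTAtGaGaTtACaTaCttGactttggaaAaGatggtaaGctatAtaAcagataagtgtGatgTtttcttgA

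Further on, at coding positions 2540 to 2678, both genes carry the same 139 bases, the longest identical run between them. It is shown because a 50-base read from it fits Slfn8 and Slfn9 equally well. In Slfn8 it lies at chr11:83003134-83003272 and in Slfn9 at chr11:82981231-82981369, both on the minus strand.
Slfn8 and Slfn9: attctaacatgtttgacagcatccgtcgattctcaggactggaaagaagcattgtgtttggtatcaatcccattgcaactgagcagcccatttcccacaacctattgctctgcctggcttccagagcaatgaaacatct

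Runs of 31 or more identical bases, the word length kallisto uses by default, covered 45.6% of the aligned coding bases of Slfn8 and Slfn9, in 22 runs. For Slfn3 and Slfn4 the figure was 57.4%, in 17 runs, the longest of 95 bases. A stretch of 90 aligned coding bases in which this pair differs at 15 positions, again in capitals, is shown to set against the first pair. It lies on the plus strand in exon 3 of Slfn3 (Slfn3-202) at chr11:83212548-83212637 and in exon 7 of Slfn4 (Slfn4-201) at chr11:83186529-83186618.
Slfn3: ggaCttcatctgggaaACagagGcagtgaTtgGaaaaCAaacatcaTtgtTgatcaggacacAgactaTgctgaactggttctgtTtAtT
Slfn4: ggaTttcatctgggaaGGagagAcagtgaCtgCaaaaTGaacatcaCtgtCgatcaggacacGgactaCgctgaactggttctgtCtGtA

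Over whole transcripts, UTRs included, each distinct 31-base word of a member was looked up in all other annotated transcripts. Slfn1 was nearly unique, with 98% of its words in no other gene. Slfn2 had 89.2% and Slfn5 86.6% of words in no other gene. The share was lower for Slfn4, at 79.1%, Slfn9, at 75.4%, Slfn8, at 72.7%, and Slfn3, at 69.1%. Slfn8 held 19.1% of its words in common with Slfn9 and 18.7% with Slfn10-ps, an annotated pseudogene beside it. Slfn3 held 15.1% in common with Slfn4 and 10.8% with Gm11427. Slfn5 shared no word with another member, and 7.99% of its words lay in its antisense gene Slfn5os, within the 13.4% that lay in any of 3962 other genes. No strand setting is given for the counting, so reads of a gene and of its antisense partner may not be separable. The antisense Slfn5os held 0 to 11 counts per library and the antisense Gm20234 at Slfn2 held 92 to 166, against 6754 to 8373 for Slfn2.

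**Figure D1:**
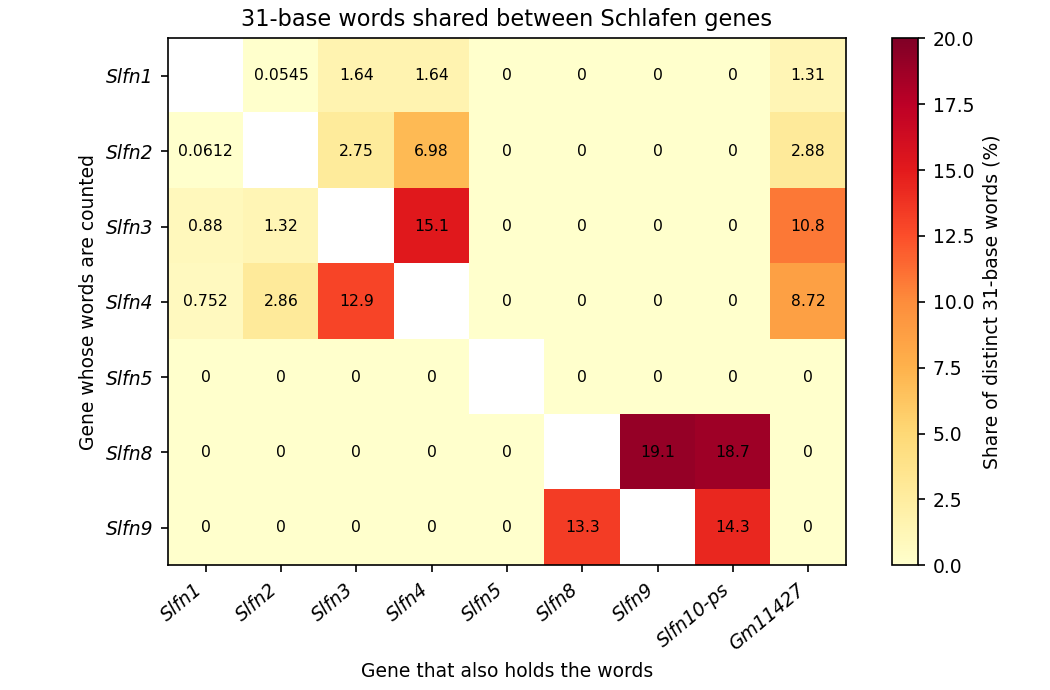
Share of the distinct 31-base words of each Schlafen gene (rows, in percent) that also occur in another member, in Slfn10-ps or in Gm11427 (columns). Sharing is highest between Slfn8, Slfn9 and Slfn10-ps (13.3% to 19.1%) and between Slfn3 and Slfn4 (12.9% and 15.1%), and Slfn5 shares 0 words with the other members.

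The cells carried T cell transcripts. The summed level of 12 CD4 T cell and Th1 markers was 4418 to 4988 TPM (a level scaled per transcript length) over the WT libraries and 3630 to 4247 TPM over the knockout libraries, without overlap. The Th1 cytokine gene Ifng averaged 0.556 TPM in WT libraries and 0.643 TPM in knockout libraries. Most of the sum was Trac, at 1402 to 1688 TPM in WT and 1089 to 1324 TPM in Wtap KO, and Trbc2, at 978 to 1303 and 828 to 1170 TPM. Of these 12 markers 2 were called, Cd3g (adjusted p = 0.014, edgeR) and Cd4 (adjusted p = 0.024), both lower in Wtap KO. Tbx21, Il12rb2, Cd5 and Ifng had log2 fold changes above 0 (0.68, 0.38, 0.24 and 0.18), and the other markers lay below 0. Libraries held 32363139 to 44039467 estimated counts. Total Wtap was at 114, 107 and 94.3 CPM (counts scaled to a common library size) in WT 1 to 3 and at 114, 120 and 119 CPM in Wtap KO 1 to 3, so the groups overlap in total Wtap. In TPM they do not, at 42.0 to 51.2 TPM in WT and 58.1 to 61.5 TPM in the knockout libraries. The transcript Wtap-205 does separate them, at 22.7 ± 4.38 TPM (SD, n = 3) in WT and at 5.09 ± 0.435 TPM in Wtap KO, and 2 more transcripts separate them the other way. Wtap-201 had 17.6 ± 1.28 TPM in WT against 38.3 ± 2.94 in Wtap KO, while Wtap-203 had 0.0787 ± 0.136 TPM against 9.68 ± 1.60. Wtap KO 3 differed from the other libraries in sex-linked genes: the Y-linked Kdm5d was at 63.3 CPM against 2.43 to 3.54 CPM, and Xist at 3.80 CPM against 1980 to 4448 CPM. Across all genes, edgeR's quasi-likelihood test called 1626 of 17610 genes (adjusted p under 0.05), 9.23%, with 5.75% higher and 3.49% lower in Wtap KO.

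On the per-length TPM scale, the 2 short members dominated the family. In WT, Slfn1 had a mean of 148 ± 6.74 TPM and Slfn2 of 134 ± 10.3 TPM (SD, n = 3), and their libraries overlapped. Slfn8 followed at 19.5 ± 4.64 TPM, apart from both neighbours in the order. Slfn3 at 8.01 ± 3.38, Slfn9 at 5.23 ± 1.36 and Slfn5 at 4.93 ± 1.44 TPM came next, and each overlapped its neighbour. Slfn4 was last at 0.170 ± 0.0777 TPM. In Wtap KO the order was different at the top: Slfn2 came first at 118 ± 1.04 TPM and Slfn1 second at 78.0 ± 4.89 TPM, with no overlap between them. Slfn8 remained the third, at 19.2 ± 0.662 TPM. Slfn9 at 10.4 ± 0.677 TPM and Slfn3 at 9.67 ± 0.550 TPM overlapped, Slfn5 was at 7.06 ± 2.22 TPM and Slfn4 at 0.438 ± 0.154 TPM. Ordering by CPM per kb of the longest transcript gave the same ranks in both groups.

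The summed TPM of the 7 members was 321, 330 and 309 in WT 1 to 3 and 249, 243 and 237 in Wtap KO 1 to 3. The groups do not overlap, and the means were 320 ± 10.7 and 243 ± 6.00 TPM. The sum of the T cell markers, mostly Trac and Trbc2, was also lower in each knockout library, and its part in the family sum was not tested. Slfn1 made up 46.1 ± 0.632% of the family sum in WT and 32.1 ± 1.30% in Wtap KO. The shares of Slfn2 were 42.0 ± 3.56% and 48.7 ± 1.41%, and those of Slfn9 1.63 ± 0.416% and 4.30 ± 0.378%. Slfn1 stood at 1.22, 1.09 and 1.00 times the TPM of Slfn2 in WT 1 to 3 and at 0.713, 0.638 and 0.629 times in Wtap KO 1 to 3. In the wild-type libraries the 2 short genes were thus near parity, and in each knockout library Slfn1 was the lower of them.

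**Figure D2:**
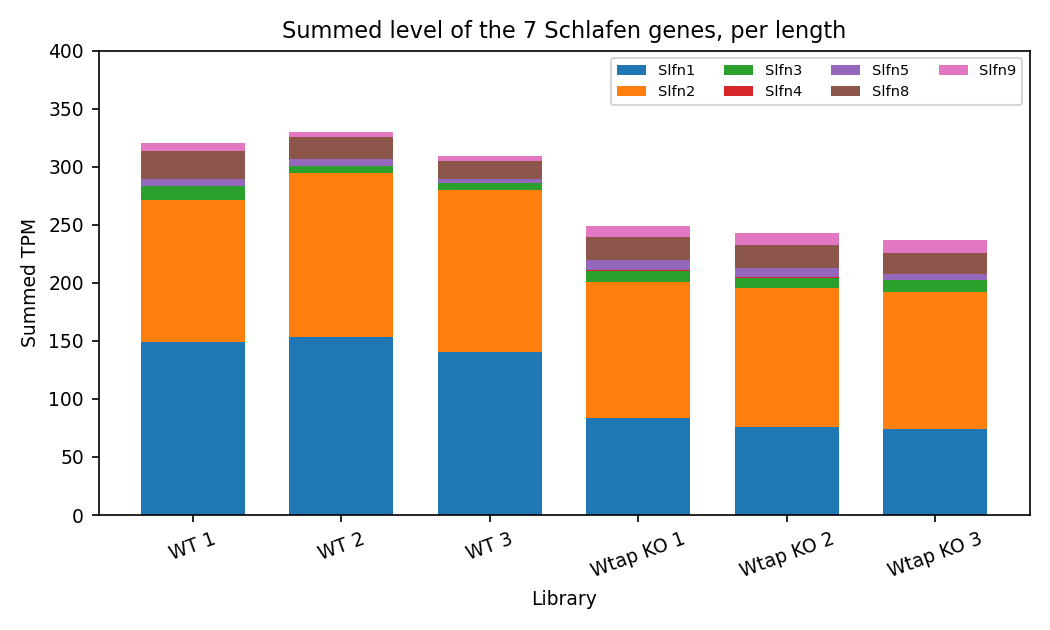
Summed TPM of the 7 Schlafen genes in each library, stacked by gene. The WT bars reach 309 to 330 TPM and the Wtap KO bars 237 to 249 TPM, and the Slfn1 segment covers 140 to 154 TPM in WT and 74.3 to 83.5 TPM in Wtap KO.

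Of the 7 members, 2 passed the test on CPM, Slfn1 lower and Slfn9 higher in Wtap KO, beside the 9.23% of all genes. In 4 members, Slfn1, Slfn2, Slfn4 and Slfn9, the 3 WT and the 3 Wtap KO libraries did not overlap in CPM, which held for 32.8% of all genes tested. Since the family was chosen on this contrast, nothing is read from either count. The median log2 fold change of the 7 members was 0.21, against -0.0005 for all genes tested, with 4 members above 0 and 3 below. In bulk RNA, fewer cells of a type and less RNA per cell cannot be told apart.

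**Figure D3:**
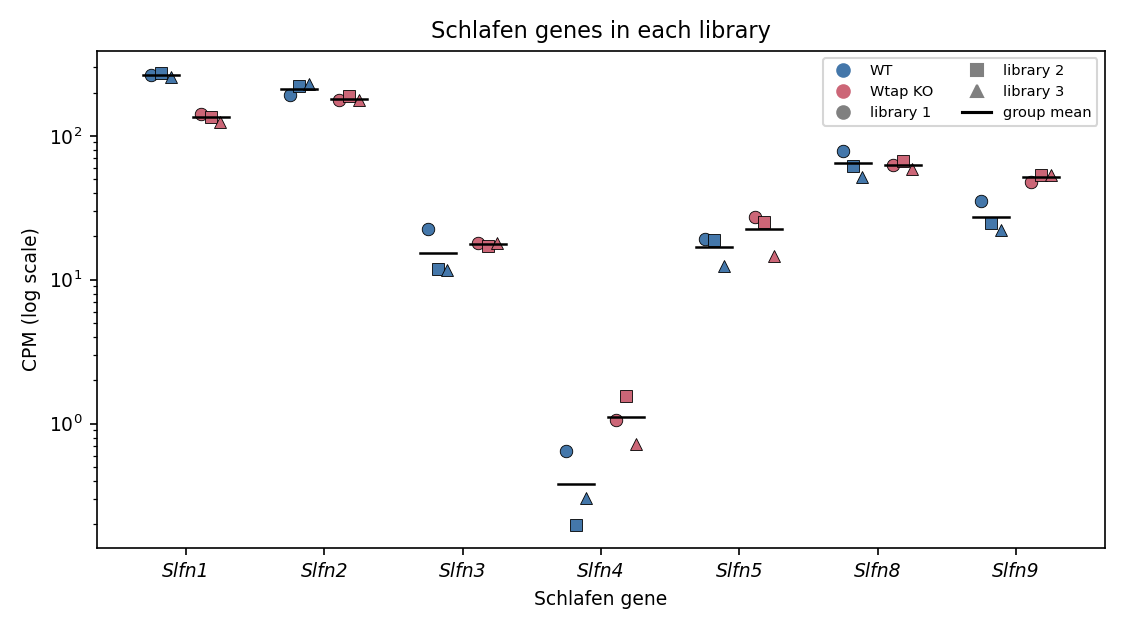
CPM of each Schlafen gene in each library on a log axis, WT in blue and Wtap KO in red, with the library number as the symbol and the group mean as a line. Slfn1 (259 to 272 against 126 to 143 CPM) and Slfn9 (22.1 to 35.4 against 47.7 to 53.9 CPM) separate in opposite directions, and Slfn3, Slfn5 and Slfn8 overlap.

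Among the short members, Slfn1 (ENSMUSG00000078763, chr11:83116849-83122670, plus strand) had 263, 272 and 259 CPM in WT 1 to 3 and 143, 136 and 126 CPM in Wtap KO 1 to 3. The 3 knockout libraries are close to each other and all lie far below the 3 wild-type libraries. The means were 265 ± 6.85 and 135 ± 8.59 CPM, a log2 fold change of -0.97 ± 0.10 (SE). Slfn1 has a single annotated transcript. Under 17 other ways of processing the data, its log2 fold change ran from -1.01 to -0.91. Keeping protein-coding transcripts alone and summing paralogs could hardly change it, as its only transcript is coding and it was in no summed pair. As 1.96% of its words occur in other members, little of its count can be exchanged with them.

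Slfn2 (ENSMUSG00000072620, chr11:83065112-83070678, plus strand), the gene tied to quiescence, had 191, 221 and 228 CPM in WT 1 to 3 and 177, 189 and 176 CPM in Wtap KO 1 to 3. The groups are separated only by the gap between WT 1 and Wtap KO 2, which is smaller than the range within either group. The log2 fold change was -0.24 ± 0.10, and Slfn2 was not called. Slfn2 ends 46 kb before Slfn1 on the same strand.

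The intermediate Slfn3 (ENSMUSG00000018986, chr11:83191330-83215154, plus strand) had 22.5, 11.8 and 11.7 CPM in WT 1 to 3 and 18.1, 17.2 and 17.9 CPM in Wtap KO 1 to 3. WT 1 lies above the knockout libraries and WT 2 and WT 3 below them, so the groups overlap. Slfn3 had a log2 fold change of 0.21 ± 0.24. It was 0.59 without WT 1, and Slfn3 then passed the test. Most of its counts were divided between Slfn3-201, with 37.5 ± 10.0% in WT and 42.2 ± 8.26% in Wtap KO, and Slfn3-202, with 47.9 ± 9.79% and 45.6 ± 7.81%. The noncoding Slfn3-203 held 14.6 ± 1.78% and 12.2 ± 0.547%.

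Slfn4 (ENSMUSG00000000204, chr11:83175186-83190216, plus strand), a member best known from myeloid cells, was scarce. It held 23, 6 and 11 counts in WT 1 to 3 and 41, 63 and 32 counts in Wtap KO 1 to 3, which is 0.645, 0.197 and 0.305 CPM against 1.06, 1.55 and 0.718 CPM. Each knockout library lies above each wild-type library, and the closest 2, WT 1 and Wtap KO 3, differ by few counts. The log2 fold change was 1.55 ± 0.47, and Slfn4 was not called. It was called by DESeq2, with no filter on low counts and without WT 1. Because Slfn3 has many more counts and shares words with Slfn4, their sum was also taken: it was 15.7 ± 6.44 CPM in WT against 18.8 ± 0.267 CPM in Wtap KO, with a log2 fold change of 0.26 ± 0.25.

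Transcripts of myeloid cells were measured beside Slfn4. The summed TPM of 12 macrophage and monocyte markers was 104 to 237 in WT and 205 to 287 in Wtap KO, ranges that overlap, of which Ly6c2, a gene that T cells can also express, made 97.9 to 229 and 197 to 277 TPM. Of these 12 markers 7 were tested and 1, Itgam, was called, higher in Wtap KO (adjusted p = 0.035, edgeR). The median log2 fold change of the tested markers was 0.51. Cd68 and Ms4a7 fell below 0, with -0.52 ± 0.22 and -0.24 ± 0.40 (SE), and neither was called. For Cd68 no knockout library reached the lowest wild-type library. Csf1r, Adgre1 and Cd14 were at most 0.307 TPM in each library, and C1qa was listed at 0. The 10 granulocyte markers summed to 0.265 to 0.375 TPM in WT and 0.660 to 0.942 TPM in Wtap KO. S100a9 was at 0 in each library and S100a8 at 0 in all but Wtap KO 3. Only Mmp9 of that list was tested, and it was not called (adjusted p = 0.075, edgeR). The 10 dendritic cell markers summed to 11.8 to 37.7 TPM in WT and 45.1 to 60.4 TPM in Wtap KO. Of 8 tested 3 were called higher (H2-Aa, Cd74 and Batf3), and Cd74 made 2.33 to 9.31 and 23.1 to 32.3 TPM. H2-Ab1 in that list was not called (log2 fold change -0.92 ± 0.55) and was at 30.3 TPM in WT 1 against 6.13 to 8.35 TPM in the other libraries, while Itgax, Flt3 and Xcr1 were at most 0.222 TPM. The summed NK cell markers were 3.31 to 8.15 and 11.4 to 13.8 TPM, with Ncr1 at most 0.0714 TPM and 1 of 5 tested called higher. That marker, Klra7, made 1.72 to 5.34 and 8.57 to 10.3 TPM of the sum. Eomes was the only tested NK cell marker below 0 (log2 fold change -0.30 ± 0.25) and was not called. The summed B cell markers were 409 to 582 and 335 to 538 TPM, of which Ighm made 403 to 569 and 327 to 526 TPM, and 1 of 8 tested was called, Ebf1, higher in Wtap KO (adjusted p = 0.013, edgeR) at 0.0386 and 0.152 TPM. The 2 CD8 T cell markers summed to 7.18 to 7.79 and 11.4 to 13.9 TPM, with Cd8b1 called higher. The part of such cells in the Slfn4 values was not tested.

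The long member Slfn5 (ENSMUSG00000054404, chr11:82951349-82964840, plus strand) had 19.3, 18.9 and 12.4 CPM in WT 1 to 3 and 27.4, 25.1 and 14.7 CPM in Wtap KO 1 to 3. Wtap KO 3 falls among the wild-type libraries and the other 2 knockout libraries lie above them. The log2 fold change was 0.41 ± 0.25, and 0.64 without Wtap KO 3. Most counts belonged to Slfn5-201, at 75.2 ± 4.36% in WT and 74.3 ± 5.91% in Wtap KO.

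Slfn8 (ENSMUSG00000035208, chr11:83002158-83020810, minus strand), the most abundant long member, had 78.9, 62.1 and 52.0 CPM in WT 1 to 3 and 62.5, 66.9 and 58.7 CPM in Wtap KO 1 to 3. The knockout values fall inside the wild-type range. For Slfn8 the log2 fold change was -0.04 ± 0.15, and its sign differed in 5 of 17 other settings, none of which called it. Slfn8-201 held 48.8 ± 5.27% of its counts in WT and 56.2 ± 4.58% in Wtap KO, and Slfn8-206 held 32.2 ± 6.43% and 25.1 ± 1.64%.

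Slfn9 (ENSMUSG00000069793, chr11:82978390-82991830, minus strand), the close copy of Slfn8, had 35.4, 24.8 and 22.1 CPM in WT 1 to 3 and 47.7, 53.9 and 53.7 CPM in Wtap KO 1 to 3. All 3 knockout libraries lie above the highest wild-type library. The means were 27.4 ± 7.02 and 51.8 ± 3.50 CPM, a log2 fold change of 0.92 ± 0.17. Slfn9-201, a full-length coding transcript, held 93.0 ± 0.486% of its counts in WT and 91.8 ± 1.42% in Wtap KO. Slfn9 was no longer called without WT 2, Wtap KO 1, Wtap KO 2 or Wtap KO 3, with log2 fold changes of 0.78 to 1.14 when any 1 library was left out.

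Because Slfn8 and Slfn9 share the runs of sequence shown above, their split of reads bears on these values. The sum of both was 114, 86.9 and 74.1 CPM in WT 1 to 3 and 110, 121 and 112 CPM in Wtap KO 1 to 3. In the sum WT 1 falls among the knockout libraries, and the log2 fold change was 0.32 ± 0.15, not called. The TPM of Slfn9 relative to Slfn8 was 0.277, 0.252 and 0.274 in WT 1 to 3 and 0.503, 0.539 and 0.594 in Wtap KO 1 to 3. The ratio thus varied little within a group, and its values in the 2 groups lie far apart. The pseudogene Slfn10-ps, which shares words with both, had 20.8, 12.1 and 8.21 CPM in WT against 12.6, 12.9 and 13.2 CPM in Wtap KO, and it did not pass the test (log2 fold change -0.09 ± 0.29, adjusted p = 0.89, edgeR).

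WT 1 stood apart from WT 2 and WT 3 in several of these genes. It was the highest wild-type library for Slfn3, Slfn4, Slfn5, Slfn8, Slfn9 and Slfn10-ps, and the lowest for Slfn2. Without it, 4 members passed the test, Slfn1, Slfn3, Slfn4 and Slfn9. The number of members called was 1 without WT 2 or without any 1 of the knockout libraries, and the number of genes called overall ranged from 361 to 2284 when 1 library was left out.

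The 7 members lie within a cluster of 335 kb on chromosome 11, from chr11:82951349 at Slfn5 to chr11:83286726 at Slfn14, with 25 annotated genes inside it. Slfn14, known from the red cell and platelet lineages, had 0 to 2 counts per library, and Slfnl1, a related gene on chromosome 4, had 0 to 2 counts. Apart from the members, 6 genes inside the cluster were tested and 1 was called. That gene, AI662270, is annotated as a noncoding processed transcript at chr11:83223576-83226604 on the plus strand, 8.4 kb beyond the end of Slfn3 and 101 kb beyond the end of Slfn1. It had 129, 108 and 109 CPM in WT 1 to 3 and 55.6, 60.1 and 61.5 CPM in Wtap KO 1 to 3. AI662270 fell, with a log2 fold change of -0.97 ± 0.11 (adjusted p = 0.0025, edgeR), and the groups do not overlap. Its fold was near that of Slfn1, and its adjusted p (edgeR) was 0.00074 to 0.024 with each library left out in turn. The antisense Gm20234 at Slfn2 had 3.91 ± 0.703 CPM in the WT and 2.36 ± 0.126 CPM in the Wtap KO group (adjusted p = 0.060, edgeR). Gm11427, which overlaps AI662270 on the same strand, so that reads may be split between them, and which shares words with Slfn3 and Slfn4, had 12.4 ± 1.67 and 17.0 ± 4.29 CPM (adjusted p = 0.18, edgeR).

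Beside the cluster, the protein-coding genes Nle1, on the left, and Ap2b1, on the right, did not pass the test. Their log2 fold changes were 0.05 ± 0.17 for Nle1 (adjusted p = 0.89, edgeR) and -0.19 ± 0.11 for Ap2b1 (adjusted p = 0.33, edgeR). In the order of the chromosome, Slfn8, Slfn2 and Slfn1, the members with values below 0, lie next to each other, with Slfn5 and Slfn9 on one side and Slfn4 and Slfn3 on the other. Slfn8, at -0.04 ± 0.15, changed sign in 5 of 17 other settings, and Slfn2 was not called. Nothing is read from this order.

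**Figure D4:**
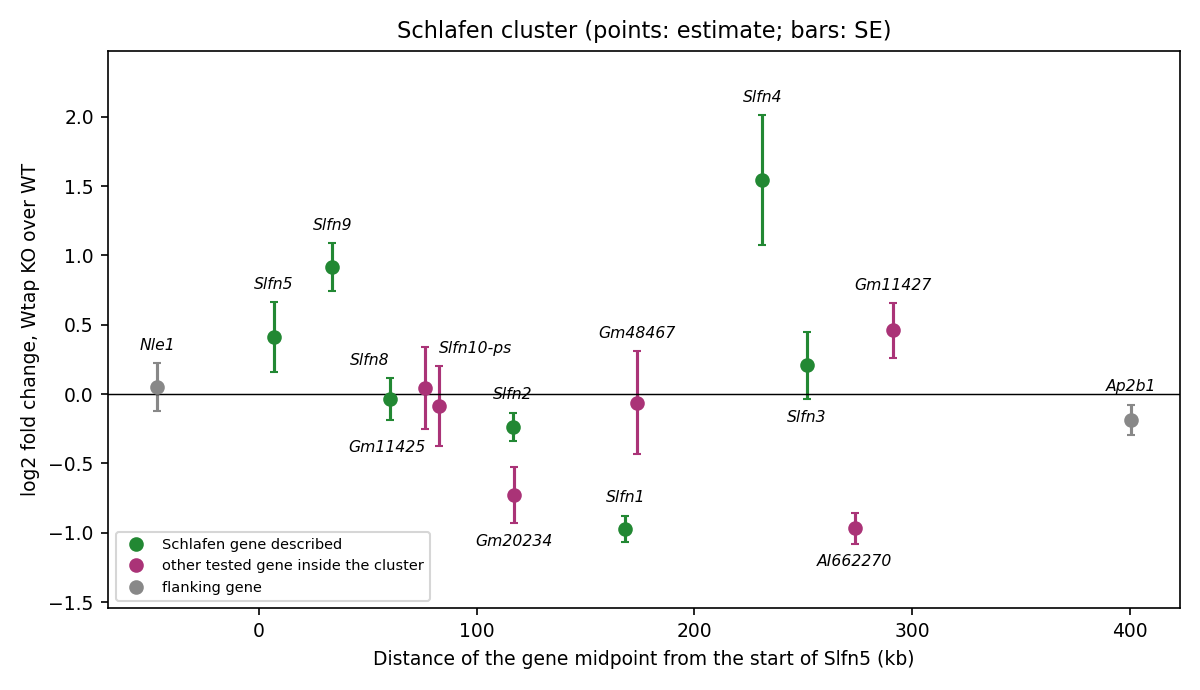
The log2 fold change of tested genes in the Schlafen cluster, and of Nle1 and Ap2b1 beside it, against the distance of the gene's midpoint from the start of Slfn5 in kb, with SE bars. Slfn1 and AI662270 both lie at -0.97, Slfn9 at 0.92 and Slfn4 at 1.55, and the flanking Nle1 and Ap2b1 lie at 0.05 and -0.19.

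As the family is known for its response to interferon, the promoters were searched for 2 motifs on both strands: the core of the interferon-stimulated response element (ISRE) (GAAA, any 2 bases, GAAA), and the gamma-activated site, TTCNNNGAA. RefSeq windows (GRCm38.p6) run from 250 bases before to 50 bases after a start site, and 8 windows matched the 7 members, 2 of them for Slfn8. The ISRE core occurred in 4 of 8 windows (50%), those of Slfn5, Slfn8 and Slfn9, against 3.44% of 32851 windows of 27025 genes. These windows are not independent. The 2 windows of Slfn8 overlap and hold the same site, and the upstream bases of Slfn9 had 85.1% identity to those of Slfn8. No ISRE core was found in the windows of Slfn1, Slfn2, Slfn3 and Slfn4, which says only that these letters are not there. The gamma-activated site occurred in 0 of 8 member windows, against 8.3% of all windows. The match in Slfn5 reads GAAAAAGAAA and begins 155 bases before the start site.

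The 250 bases upstream of Slfn8 (chr11:83020811-83021060) and of Slfn9 (chr11:82991831-82992080), both on the minus strand, are shown because they are alike. Any link to the values of the 2 genes was not tested. Identity between the 2 stretches was 85.1% over 242 aligned bases, against 51.8% to 64.2% between other pairs of members. The ISRE core, read on the opposite strand as TTTCGTTTTC and given in capitals, begins 48 bases before the start of Slfn8 and 45 bases before that of Slfn9. The window of the second Slfn8 start site holds the same match. The upstream bases of Slfn1 (chr11:83116570-83116819, plus strand), the only member called lower in Wtap KO, are shown beside them. They hold no capitals, as there was no match.
Slfn8: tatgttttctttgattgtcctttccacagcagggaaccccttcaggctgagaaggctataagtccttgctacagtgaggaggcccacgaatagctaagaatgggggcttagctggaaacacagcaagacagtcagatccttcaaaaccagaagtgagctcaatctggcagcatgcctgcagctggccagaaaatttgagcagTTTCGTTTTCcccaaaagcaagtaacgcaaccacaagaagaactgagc
Slfn9: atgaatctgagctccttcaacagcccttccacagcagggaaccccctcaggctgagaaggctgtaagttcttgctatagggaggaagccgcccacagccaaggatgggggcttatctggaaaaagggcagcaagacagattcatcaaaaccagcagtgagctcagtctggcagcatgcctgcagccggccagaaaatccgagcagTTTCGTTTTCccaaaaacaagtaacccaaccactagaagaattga
Slfn1: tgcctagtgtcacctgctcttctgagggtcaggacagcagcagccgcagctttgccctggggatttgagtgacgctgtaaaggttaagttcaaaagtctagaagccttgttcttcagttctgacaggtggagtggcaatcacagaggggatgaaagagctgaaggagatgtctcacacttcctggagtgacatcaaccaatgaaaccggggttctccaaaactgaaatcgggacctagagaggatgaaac

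The m6A writer prefers sites within a short sequence core, of which GGACT is the best known form, so the longest transcript of each member was searched for it on the sense strand. Slfn1 held 1 GGACT, or 0.536 per kb, and Slfn5 held 3, or 0.502 per kb. The other 5 members held more: 4 in Slfn2 (2.40 per kb), 5 in Slfn3 (1.76 per kb), 8 in Slfn4 (2.02 per kb), 9 in Slfn8 (2.24 per kb) and 13 in Slfn9 (2.25 per kb). Over all genes tested the median was 0.968 per kb, with quartiles of 0.524 and 1.459. Slfn1 and Slfn5 thus lie near the lower quartile and the other 5 members above the upper quartile. For Slfn3 this rests on Slfn3-203, a noncoding processed transcript with 14.6 ± 1.78% of its counts in WT and 12.2 ± 0.547% in Wtap KO. The density in the coding transcripts of Slfn3 was not taken. A match is not a methylated site, and no methylation was measured in these files. Slfn8 and Slfn9 have nearly the same density, and any link between density and log2 fold change was not tested.

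Other genes of the interferon pathway were read from the same test. Of 35 interferon-stimulated genes, all tested, 14 rose and 1 fell in Wtap KO and 20 were not called, beside 5.75% of all genes that rose. Their median log2 fold change was 0.58, against -0.0005 for all genes. Rtp4, a chaperone for receptors at the cell surface, rose from 25.6 ± 9.87 to 98.9 ± 19.3 CPM (log2 fold change 1.95 ± 0.29, adjusted p = 0.0073, edgeR). Mx1, of a family of antiviral GTPases, rose from 3.96 ± 1.06 to 11.3 ± 2.57 CPM (adjusted p = 0.0088, edgeR). Usp18, which removes ISG15 from proteins and dampens interferon receptor signalling, rose from 8.12 ± 0.888 to 23.0 ± 1.34 CPM (adjusted p = 0.0012, edgeR). Epsti1 fell from 451 ± 46.9 to 289 ± 16.6 CPM (adjusted p = 0.011, edgeR), but was not called without Wtap KO 1 or without Wtap KO 2. The count of genes that rose was 8 without WT 2, 9 without WT 3 and 5 without Wtap KO 1 or without Wtap KO 2. Among 12 interferon receptor and signalling genes, 1 rose, Ifnar1, a chain of the type I interferon receptor, from 178 ± 8.17 to 274 ± 13.9 CPM (adjusted p = 0.0073, edgeR), and it was not called without Wtap KO 2. Of the Schlafen members, Slfn4, at 1.55, and Slfn9, at 0.92, lie above the median of the interferon-stimulated list. Slfn5, at 0.41, Slfn3, at 0.21, Slfn8, at -0.04, and Slfn2, at -0.24, lie below that median. Slfn1, at -0.97, lies below each gene of the list.

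**Figure D5:**
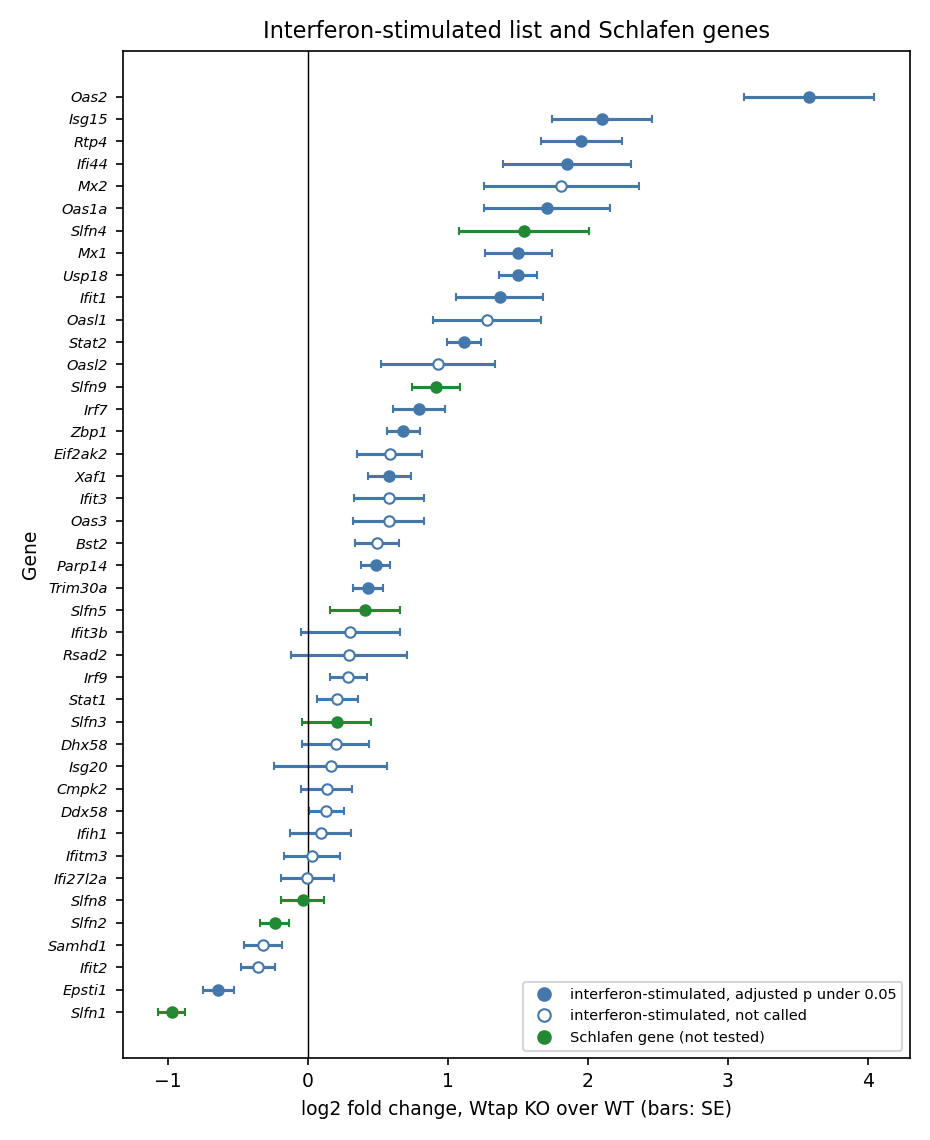
The log2 fold change, with SE bars, of 35 interferon-stimulated genes (blue, filled where the adjusted p was under 0.05) and of the 7 Schlafen genes (green, no test), sorted by value. The list runs from Epsti1 at -0.64 upward with 14 filled points above 0, while the Schlafen genes are spread from -0.97 for Slfn1 to 1.55 for Slfn4.

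The processes in which Slfn2 and its relatives act were followed through 3 more lists. Of 20 T cell quiescence genes, 2 rose and 0 fell: Ccr7, the homing receptor of naive T cells, from 381 ± 60.1 to 717 ± 68.9 CPM (adjusted p = 0.0068, edgeR), and Foxp4, a forkhead transcription factor, from 22.1 ± 4.23 to 35.2 ± 2.98 CPM (adjusted p = 0.031, edgeR). The median of that list was -0.09. Of 14 genes for tRNA cleavage, repair and protection, 1 rose, Clp1, an RNA kinase of tRNA splicing, from 38.3 ± 2.92 to 67.2 ± 4.28 CPM (adjusted p = 0.0045, edgeR). Of 15 genes for replication stress and fork protection, 0 rose and 2 fell: Ddb1, a DNA damage binding protein, from 151 ± 12.1 to 114 ± 4.58 CPM (adjusted p = 0.040, edgeR), and Rpa1, which coats single-stranded DNA, from 125 ± 7.14 to 95.3 ± 2.05 CPM (adjusted p = 0.035, edgeR). Neither fall was called without WT 2, without any 1 of the knockout libraries or by limma on TPM, and 1 gene of the list was called lower without WT 3. The quiescence list held 1 rise without WT 2 or without any 1 of the knockout libraries. These counts stand beside 5.75% of all genes higher and 3.49% lower.

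Other genes were ranked by likeness to each member, as the root-mean-square difference of centred log2 CPM over the 6 libraries, where a small value means a like pattern. Because the 6 libraries include both groups, a like difference between the groups makes up much of any likeness. Nearest to Slfn1 were Gm48942, at 0.091, and Tlr1, a receptor for bacterial lipoproteins, at 0.094. AI662270 was place 11, at 0.13, whereas the nearest member, Slfn2, was at 0.38. Nearest to Slfn9 were Ston1, at 0.085, and Trim30d, a member of a TRIM family that interferon can induce, at 0.096. Nearest to Slfn2 were Evl and Dctn6, at 0.031 and 0.032, and to Slfn8 Fam136a and Tmed10, at 0.037 and 0.039. For Slfn3 they were Rfc3 and Spef2, at 0.091 and 0.099, and for Slfn5 Polm was nearest, at 0.079. The scarce Slfn4 had no close partner, with Qprt at 0.42 and Adap1 at 0.42. The nearest member was at 0.24 for Slfn3 and Slfn8, which were nearest to each other, at 0.36 for Slfn9 and at 0.52 for Slfn4. In each case a non-member was closer. The nearest non-member was picked from 8332 genes and the nearest member only from the 7, so nothing is read from this.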

How the data were processed

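Messenger RNA was sequenced in 3 WT and 3 Wtap KO libraries of mouse CD4+ T cells with a Lexogen SENSE mRNA kit, as pairs of 50 bp, per the labels' protocols. The authors deposited 1 table per library for 142647 transcripts, with columns for the estimated count, the TPM, the length and the effective length. The submitters' processing notes name kallisto 0.44.0, DESeq2 and the build GRCm38 (mm10). kallisto splits reads that fit several transcripts, so the deposited estimated counts carry a split between close copies whose error is not given. The deposited TPM values are per length and scaled to a fixed total by the authors. The sources used here do not give the strand setting or the annotation of the index.

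Transcripts were matched by identifier to GENCODE M21, and 99.15% matched, with 99.71% to 99.75% of counts. The estimated counts of a gene's transcripts were added up and rounded. Genes were tested with edgeR 4.0.16 in R 4.3.3 (quasi-likelihood, robust, TMM, filterByExpr, genotype as the only term), with Benjamini-Hochberg adjustment over 17610 genes and a threshold of 0.05, after the script was tested on simulated data. The self-made 31-base words came from GENCODE M21 transcripts, and coding regions and exon numbers from the same release. Alternatives were RLE scaling, DESeq2 1.42.0, no filter on low counts, unmatched transcripts kept, length-scaled counts, limma 3.58.1 on log2(TPM + 1) and log2(TPM + 0.1), the replicate number as a block, each library left out, protein-coding transcripts alone and paralogs that share at least 10% of words summed. A GC content offset was added after seeing the data. Named genes were the members, other Schlafen genes, Wtap, the genes inside and flanking the cluster, and, of each pathway list, up to 3 called genes per direction whose higher group averaged 10 CPM or more. The 2 most alike genes of each member, averaging 10 CPM or more, were named too. A few genes that this rule names are not reported here. The members and lists were chosen with earlier results of these data known.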

Additional observations from a re-analysis of the deposited data

How the results depend on the processing

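The main test called 1626 genes and 2 members. DESeq2 called 2500 genes, limma 942 on log2(TPM + 1) and 901 on log2(TPM + 0.1), and 361 to 2284 were called with 1 library left out. Of calls, 62.2% were higher in Wtap KO in the main test, 72.2% and 71.5% in the 2 limma fits and 52.6% in DESeq2. The count of members called was 1 to 4 with 1 library left out, 3 by DESeq2 and with no filter on low counts, and 1 with paralogs summed. Summing moved the log2 fold change to 0.26 for Slfn4 and to 0.32 for Slfn8 and Slfn9. The interferon-stimulated genes called higher numbered 14 in the main test, 9 by limma on log2(TPM + 0.1) and 5 to 15 with 1 library left out. The GC content offset, chosen after seeing the data, called 2148 genes and the same 2 members.

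Same-numbered libraries correlated at -0.103, 0.05 and 0.14 in their deviations from the group means, and WT 1 correlated best with Wtap KO 2, at 0.154. With 3 libraries per group these deviations are bound to each other, so they cannot tell whether the replicate number pairs the libraries. With the replicate block 1061 genes and the same 2 members were called, with 0 falls in the replication stress list and 1 rise in the quiescence list. The replication stress list held 1 fall with no filter and with length-scaled counts. Slfn4, with 6 to 63 counts per library, is the member that depth limits most, and the split of reads between Slfn8 and Slfn9 has an error these tables do not give.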
